A study of Camellia reticulata with 27 samples.

Results

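White petal tissue of 2 Yunnan camellia cultivars (Camellia reticulata) was compared at full bloom: the petals of 'Tongzimian' (TZM), a cultivar with white flowers, and the white region of the petals of 'Manao' (MN), a cultivar whose petals carry white and red areas. The 2 tissues are not equally white. In the study TZM looked whitish to the eye, but a color card placed it in a red-purple group. The MN white region was placed in a white group. The comparison rests on 6 of the 27 RNA sequencing libraries of the series, 3 of TZM at full bloom and 3 of the MN white region. The cultivar is Manao in the sample labels and Damanao in the study, which describes it as a bud variant of the red cultivar 'Shizitou' (SZT), whereas TZM is a separate cultivar. The difference between the libraries is therefore one between cultivars, and it cannot be told apart from any difference between whole white petals and a white area cut out of a mixed-color petal. Transcripts were kept where the mean FPKM (mapped fragments scaled by transcript length and by library size) was at least 5 in TZM or in MN white, which held for 33589 of the 225938 assembled transcripts. Beside them, 5 other groups of 3 libraries were read for the same transcripts: TZM bud, MN bud stage 3 (its late bud), SZT bud, and the 2 red tissues at full bloom, SZT and the MN red region. The last 2 groups, MN bud stage 1 and MN at initial flowering, entered the shared fit and counts over all MN libraries. MN bud stage 1 was also read for some bud means. The sample labels name the tissue only as flowers, and no cell type marker is named in the sources used here, so that the tissue was not checked against markers.

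Anthocyanins, the red and blue pigments of petals, are made by a branch of the flavonoid pathway. Chalcone synthase (CHS) makes the first flavonoid, flavanone 3-hydroxylase (F3H) turns flavanones into dihydroflavonols, dihydroflavonol 4-reductase (DFR) reduces these to leucoanthocyanidins, and anthocyanidin synthase (ANS) makes the colored anthocyanidins. Anthocyanidin reductase (ANR) draws on the same anthocyanidins to make colorless epicatechin. In many plants the genes of the later steps are switched on by complexes of MYB and bHLH transcription factors, and a white petal can arise from a block at any of several steps.

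The FPKM of the 6 libraries summed to between 1139660 and 1320740 per library, and between 127831 and 136623 transcripts lay above 0. Read totals are not used here, and the number of reads behind any one FPKM is therefore unknown. Across the tested transcripts, Pearson's r on log2(FPKM + 1) was 0.762 to 0.862 within TZM, 0.794 to 0.861 within MN white, and 0.420 to 0.543 between the groups (a description over transcripts, which are not replicates). Replicate 1 of TZM and replicate 1 of MN white were each less like the other 2 libraries of their group than those were like each other. Both also lay nearer the other group. Between the groups, r was 0.50 to 0.54 for pairs with at least 1 of these libraries and 0.42 to 0.43 for the remaining pairs. The 10 most abundant transcripts took 5.19%, 12.9% and 13.7% of the FPKM in TZM replicates 1 to 3, against 13.7%, 7.32% and 5.90% in MN white replicates 1 to 3.

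Differences are given as TZM minus MN white on log2(FPKM + 1), a scale that understates the change of low transcripts. They were tested with limma in 1 fit over all 27 libraries with a mean for each of 9 groups, and p-values were adjusted by the Benjamini-Hochberg method over all 33589 transcripts and 5 enzyme sums. A named transcript or an enzyme sum passed at an adjusted p under 0.05. This limit was passed by 47.9% of the 33589 transcripts, 26.6% higher and 21.2% lower in TZM. Beside each sum an exact two-sided permutation test over the 6 libraries was run, whose 20 regroupings allow no p under 0.1. In bulk tissue, fewer cells of a type and less RNA per cell cannot be told apart.

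Among the pathway enzymes whose transcripts the study names, DFR set the 2 white tissues farthest apart. DFR and F3H transcripts were lower in TZM than in MN white, CHS transcripts were low in both and higher in TZM only at the edge of the limit, and the result for ANS turned on which of its transcripts were counted. ANR transcripts were abundant in some libraries of both groups, and whether the groups separated also turned on which of its transcripts were counted. The enzymes are described in the order of the pathway, each as the sum of the transcripts that the study names for it, because reads can be shared between similar transcripts.

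CHS, the entry enzyme, had 6 named transcripts. They summed to 53.6, 27.9 and 43.3 FPKM in TZM replicates 1 to 3, against 17.3, 26.3 and 28.9 FPKM in MN white replicates 1 to 3. The groups overlapped, since TZM replicate 2 lay below MN white replicate 3. The mean was 41.6 ± 12.9 FPKM in TZM and 24.2 ± 6.06 FPKM in MN white (SD, n = 3 each), a log2 difference of 0.74 (SE 0.30, 95% interval 0.11 to 1.38, adjusted p = 0.0497, exact p = 0.2). Both white tissues lay far below the red ones in summed CHS, which averaged 227 FPKM in SZT at full bloom and 152 FPKM in the MN red region (not tested). The call of CHS ended without MN white replicate 1, MN white replicate 2, TZM replicate 1 or TZM replicate 3, with log2 differences of 0.53, 0.82, 0.54 and 0.69 and adjusted p of 0.201, 0.0694, 0.193 and 0.122. It also ended under median-ratio scaling, at 0.59 (adjusted p = 0.114).

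Among single CHS transcripts, Cluster-72978.11 separated the groups. It had 8.94, 12.6 and 13.4 FPKM in TZM, against 7.79, 3.12 and 4.68 FPKM in MN white. Every TZM library lay above every MN white library, and the log2 difference was 1.08 (SE 0.24, adjusted p = 0.00101). The more abundant Cluster-72978.8 had 42.9, 10 and 24.3 FPKM in TZM, against 7.93, 21.7 and 23.3 FPKM in MN white, with overlapping groups and a log2 difference of 0.44 (adjusted p = 0.499). It made up 80.0%, 35.8% and 56.1% of summed CHS in TZM replicates 1 to 3, against 45.8%, 82.5% and 80.6% in MN white replicates 1 to 3. The other 4 CHS transcripts stayed under 5 FPKM in both groups. Of these, Cluster-72978.9 had 1.78, 4.11 and 3.92 FPKM in TZM, against 0.92, 0.70 and 0.57 FPKM in MN white, without overlap.

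F3H, which makes the dihydroflavonols that DFR works on, fell in TZM. Its 6 named transcripts summed to 28.1, 37.1 and 37.9 FPKM in TZM, against 94.3, 76.8 and 89.7 FPKM in MN white, so that the highest TZM library lay below the lowest MN white library. The mean was 34.4 ± 5.41 FPKM in TZM and 86.9 ± 9.07 FPKM in MN white (SD, n = 3 each). The log2 difference was −1.32 (SE 0.26, 95% interval −1.87 to −0.78, adjusted p = 0.000337, exact p = 0.1). Among the 4 full-bloom tissues TZM had the least F3H, as SZT averaged 82.5 FPKM and the MN red region 59.4 FPKM. The difference to these was not tested.

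The F3H transcripts did not move alike. Cluster-88339.5 fell to 6.23, 8.20 and 6.77 FPKM in TZM, against 43.3, 27.9 and 31.9 FPKM in MN white (log2 difference −2.12, SE 0.29, adjusted p = 4.75e-06). The most abundant one, Cluster-88339.0, had 17.2, 21.5 and 22.5 FPKM in TZM, against 45.7, 41.6 and 48.9 FPKM in MN white (log2 difference −1.12, SE 0.26, adjusted p = 0.00132). Neither transcript's groups overlapped. Cluster-88339.4 had 4.21, 6.88 and 7.91 FPKM in TZM, against 3.60, 5.24 and 6.13 FPKM in MN white, and did not pass (log2 difference 0.28, adjusted p = 0.449). Cluster-88339.5 accordingly held 20.6% of mean F3H in TZM and 39.5% in MN white, while Cluster-88339.4 held 18.4% in TZM and 5.74% in MN white. The other 3 F3H transcripts stayed under 5 FPKM in both groups.

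DFR, the enzyme that commits dihydroflavonols to the anthocyanin and proanthocyanidin branches, showed the widest gap among the 5 enzyme sums. Its 3 named transcripts summed to 13.7, 6.90 and 7.67 FPKM in TZM, against 73.0, 68.7 and 69.6 FPKM in MN white. The mean was 9.41 ± 3.70 FPKM in TZM and 70.4 ± 2.24 FPKM in MN white (SD, n = 3 each), so that TZM held 13.4% of the MN white level. The log2 difference was −2.83 (SE 0.44, 95% interval −3.76 to −1.91, adjusted p = 2.53e-05, exact p = 0.1). Nearly all of it came from Cluster-90241.3, with 13.4, 6.53 and 7.67 FPKM in TZM, against 71.3, 67.5 and 68.5 FPKM in MN white (log2 difference −2.84, SE 0.45, adjusted p = 2.84e-05). The DFR mean of MN white lay between those of the red tissues, 46.8 FPKM in SZT and 77.0 FPKM in the MN red region. TZM lay below all of them, and the differences to the red tissues were not tested.

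ANS, which makes the colored anthocyanidins, had 3 named transcripts that summed to 3.34, 3.18 and 2.17 FPKM in TZM, against 7.54, 11.4 and 27.9 FPKM in MN white. Every TZM library was lower, and the MN white libraries were spread widely, with replicate 3 the highest. The mean was 2.90 ± 0.63 FPKM in TZM and 15.6 ± 10.8 FPKM in MN white (SD, n = 3 each), with a log2 difference of −1.91 (SE 0.45, 95% interval −2.86 to −0.97, adjusted p = 0.00169, exact p = 0.1). Cluster-21086.8 carried this sum, with a log2 difference of −1.91 (adjusted p = 0.00167).

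The fall of ANS did not hold for its whole cluster number, the part of a transcript's name before the point, which the sources used here do not explain. When all 9 transcripts that share the ANS number were summed, which was an alternative chosen after seeing the data, TZM had 33.8, 14.01 and 24.7 FPKM, against 7.59, 11.7 and 27.9 FPKM in MN white. The groups then overlapped and the difference turned to 0.70 (95% interval −0.31 to 1.71, adjusted p = 0.241, exact p = 0.3). The named transcripts made up 12.0% of the number in TZM and 99.3% in MN white. An unnamed transcript singled out after its values were seen, Cluster-21086.2, had 16.1, 6.82 and 2.67 FPKM in TZM, against 0, 0.22 and 0 FPKM in MN white (log2 difference 2.88, adjusted p = 6.3e-07). It averaged 19.7 FPKM in TZM bud and 0 in MN bud stage 3. Whether the TZM libraries hold another form of the same gene, read under another transcript name, was not tested.

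ANR, which diverts anthocyanidins to epicatechin, had 2 named transcripts. They summed to 7.96, 69.5 and 56.2 FPKM in TZM replicates 1 to 3, against 68.8, 3.02 and 3.88 FPKM in MN white replicates 1 to 3. Replicate 1 departed from the other libraries of its group in both tissues, and the groups overlapped over nearly their whole range. The mean was 44.6 ± 32.4 FPKM in TZM and 25.2 ± 37.7 FPKM in MN white (SD, n = 3 each), and the log2 difference of 1.57 did not pass (SE 1.04, 95% interval −0.59 to 3.74, adjusted p = 0.218, exact p = 0.3). Without MN white replicate 1 it was 2.90 (adjusted p = 0.0210), and without MN white replicate 2 it was 0.84 (adjusted p = 0.574). Single libraries also carried the ANR sums of the red tissues, which were 15.5, 3.78 and 0 FPKM in SZT and 6.79, 63.7 and 5.95 FPKM in the MN red region. The sums were thus highest in TZM replicates 2 and 3, MN white replicate 1 and MN red replicate 2. In these the 10 most abundant transcripts took 12.9%, 13.7%, 13.7% and 12.1% of the FPKM. In the other full-bloom libraries they took at most 8.34%, and the cause was not tested.

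Over all 16 transcripts of the ANR cluster number, summed as an alternative chosen after seeing the data, the groups separated. TZM had 220.5, 220.3 and 159 FPKM, against 121, 27.2 and 29.3 FPKM in MN white. The log2 difference was 2.08 (95% interval 1.08 to 3.07, adjusted p = 0.00128, exact p = 0.1). The 2 named transcripts held 22.3% of the number in TZM and 42.7% in MN white. Cluster-15097.10, singled out after its values were seen, had 155, 68.2 and 33.7 FPKM in TZM and was listed at 0 in all 3 MN white libraries (log2 difference 6.17). The whole numbers gave CHS a log2 difference of 0.86 (adjusted p = 0.0242), F3H −1.31 (adjusted p = 0.000369) and DFR −2.81 (adjusted p = 2.73e-05).

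**Figure D1:**
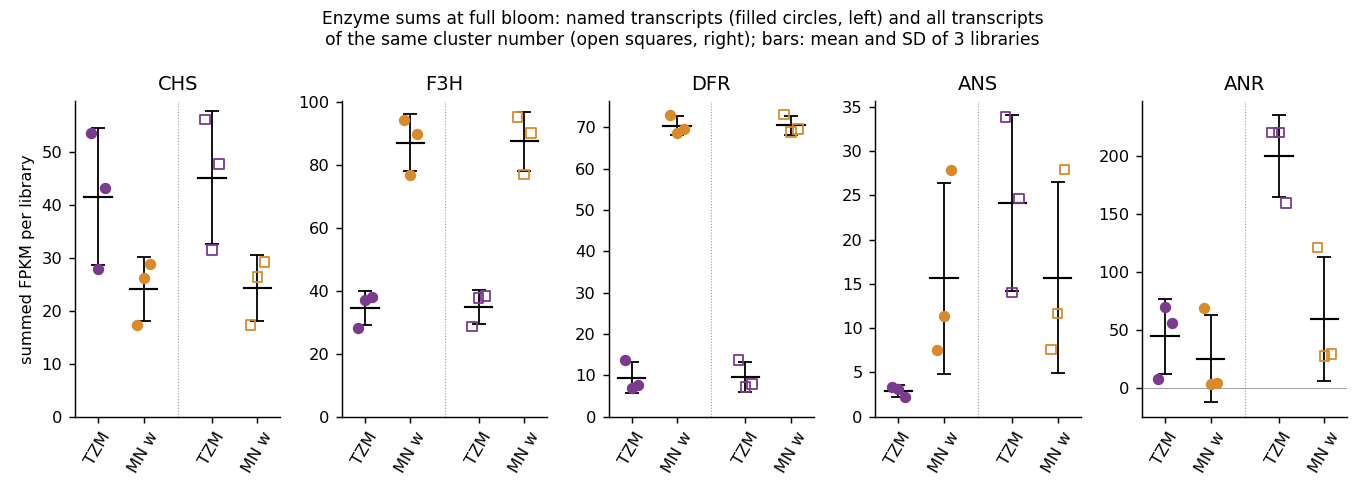
Summed FPKM of 5 pathway enzymes in each library at full bloom, with TZM left of the MN white region (MN w), named transcripts as filled circles and all transcripts of the same cluster number as open squares, and bars giving the mean and SD of 3 libraries. The scales differ between panels. F3H and DFR separate in both forms of the sum, ANS separates only for the named transcripts (2.90 FPKM in TZM and 15.6 FPKM in MN white) and ANR only for the whole number.

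**Figure D2:**
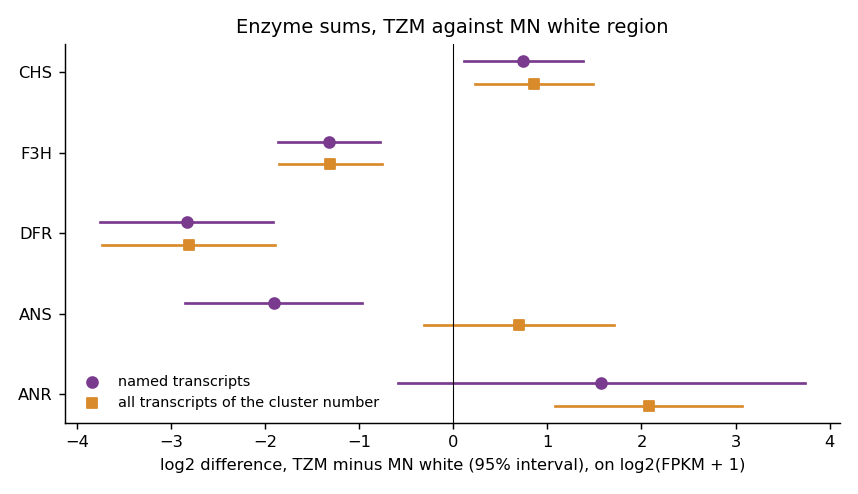
Log2 difference of each enzyme sum, TZM minus MN white on log2(FPKM + 1), with its 95% interval from limma, for the named transcripts (circles) and for all transcripts of the cluster number (squares). ANS lies at −1.91 for the named transcripts and at 0.70 for the whole number, on opposite sides of 0, while DFR stays at −2.83 and −2.81.

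The study also names transcripts of transcription factors and of functions linked to them, most of which were too low at full bloom to be tested. The study chose these transcripts on the same samples, so they are not independent evidence of a direction. Of all 86 named transcripts, 32 reached 5 FPKM in TZM or MN white and 54 did not. Of the 32, 9 passed (28.1%, against 47.9% of all tested transcripts), 1 higher and 8 lower in TZM, and their median log2 difference was −0.14, against 0.12 over all tested transcripts. The 5 enzyme transcripts described above were among the 9, and the other 4 were transcription factors.

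Among the transcription factors, 14 of 49 were tested, 4 passed and all 4 were lower in TZM. These 28.6% lay below the 47.9% of all tested transcripts that passed, of which 21.2% were lower in TZM and 26.6% higher. Cluster-93016.5, a MADS-box factor of the MIKC class, whose members specify floral organs, had 20.6, 17.6 and 21.5 FPKM in TZM, against 38.0, 34.8 and 31.2 FPKM in MN white (log2 difference −0.77, SE 0.22, adjusted p = 0.00718). Its groups did not overlap, and it passed without each of the 6 libraries in turn. Cluster-75270.2, the other and most abundant MADS-MIKC transcript, had 144.5, 68.9 and 49.7 FPKM in TZM, against 91.4, 115 and 122 FPKM in MN white, and did not pass (log2 difference −0.45, adjusted p = 0.144).

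Cluster-77973.0 is a TCP factor, a family that controls cell division and growth of petals and leaves. It had 17.3, 3.03 and 3.18 FPKM in TZM, against 10.7, 18.4 and 28.02 FPKM in MN white (log2 difference −1.47, SE 0.43, adjusted p = 0.00796). TZM replicate 1 overlapped with the MN white libraries and lay far above the other TZM libraries. Without it the difference was −2.19 (adjusted p = 2.11e-05), whereas the call ended without TZM replicate 2, TZM replicate 3 or MN white replicate 3, at −1.10, −1.13 and −1.16 (adjusted p = 0.0592, 0.0557 and 0.0513).

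Cluster-73402.0 is a bZIP factor that the study also lists under sucrose-induced translational repression, a control known from Arabidopsis bZIP messages that carry a conserved upstream reading frame. It fell to 10.7, 14.5 and 18.0 FPKM in TZM, against 28.6, 26.6 and 27.7 FPKM in MN white, without overlap (log2 difference −0.92, SE 0.35, adjusted p = 0.0345). Its call held without TZM replicate 3 (−1.09) and ended without any 1 of the other 5 libraries, at −0.95 to −0.74 (adjusted p of up to 0.125). Its partner Cluster-73402.1, which shares the cluster number, had 3.53, 7.42 and 6.18 FPKM in TZM, against 9.42, 6.84 and 12.1 FPKM in MN white, and did not pass (log2 difference −0.66, adjusted p = 0.178).

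Cluster-106545.0 belongs to the Whirly family, DNA-binding proteins that act largely in plastids and mitochondria. It had 6.71, 6.04 and 5.76 FPKM in TZM, against 8.69, 9.52 and 7.84 FPKM in MN white, without overlap (log2 difference −0.43, SE 0.16, adjusted p = 0.0295). The call ended without MN white replicate 1, MN white replicate 2, TZM replicate 2 or TZM replicate 3, at −0.43, −0.37, −0.42 and −0.39 (adjusted p = 0.0583, 0.105, 0.0691 and 0.0862). The remaining tested factors did not pass. They included a GARP factor (log2 difference −0.33, adjusted p = 0.0560), an HD-ZIP factor (0.24), an Alfin factor (0.15) and the bHLH factor Cluster-18705.3 (−0.27).

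All 9 named MYB transcripts, of the family that includes the activators of anthocyanin genes, were too low to be tested. In 7 of them the mean stayed under 1 FPKM in both groups, and 4 were listed at 0 in all 6 libraries. The highest, Cluster-96185.4, had 2.65, 1.5 and 4.16 FPKM in TZM, against 6.23, 3.01 and 3.45 FPKM in MN white. An exact 0 can be a failed estimate, so it is given only as listed.

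Below the minimum, 13 of the 54 named transcripts had groups that did not overlap, 11 of them lower and 2 higher in TZM. Of the 54, 29 had means under 1 FPKM in both groups, and 7 were listed at 0 in all 6 libraries and could not separate. Over the tested transcripts the groups did not overlap in 51.1%, but those lie above the minimum. The share over all transcripts below the minimum was not computed, so neither the count nor its direction has a base here. The Tify transcript Cluster-98191.2, of the family that includes the JAZ repressors of jasmonate signaling, had 0.41, 0.31 and 0.26 FPKM in TZM, against 3.07, 3.93 and 4.27 FPKM in MN white. Cluster-69743.0, listed under floral meristem determinacy, had 0.21, 0.96 and 0.81 FPKM in TZM, against 3.96, 5.23 and 3.64 FPKM in MN white. With a filter of 5 FPKM in any of the 9 groups, which let all 86 into the test, 18 passed, 3 higher and 15 lower in TZM. Under that filter 34.1% of 55099 transcripts passed, 18.1% higher and 16% lower. Cluster-69743.0 (log2 difference −1.69, adjusted p = 0.00176) and the Tify transcript (−1.84, adjusted p = 5.09e-05) were among the 18.

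The functional lists at full bloom gave no call beyond the bZIP transcript. Of the 6 transcripts listed under production of miRNAs, all were tested and 0 passed (median log2 difference 0.32). Of the 6 under positive regulation of post-transcriptional gene silencing, 4 were tested and 0 passed (median 0.09). Over all tested transcripts 47.9% passed. The 6 come from 1 cluster number and the 4 from 2, so they are not independent. None of the 6 floral meristem determinacy transcripts reached the minimum.

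**Figure D3:**
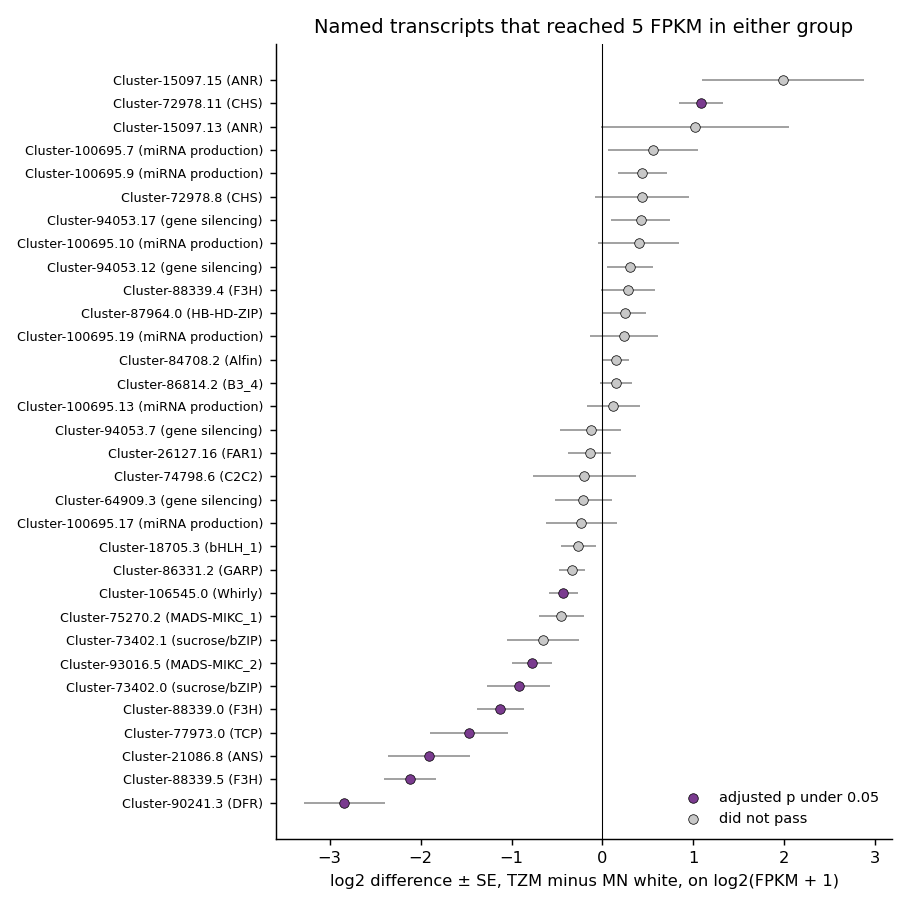
Log2 difference with its SE, TZM minus MN white on log2(FPKM + 1), for the 32 named transcripts that reached 5 FPKM in either group, ordered by size, with those at an adjusted p under 0.05 filled in purple. Of the 9 that passed, 8 lie left of 0, with DFR Cluster-90241.3 farthest at −2.84, and CHS Cluster-72978.11 is the only one to the right, at 1.08.

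Several of these differences were not the same in the bud. At bud stage the CHS sum averaged 6259 FPKM in TZM and 8331 FPKM in MN bud stage 3, and F3H 2664 FPKM in TZM and 3244 FPKM in MN, so that both lay far above their levels at full bloom. Neither differed between the cultivars past the limit, with log2 differences of −0.42 (adjusted p = 0.306) and −0.30 (adjusted p = 0.405). ANS averaged 1985 FPKM in TZM bud and 2142 FPKM in MN bud stage 3 (−0.10, adjusted p = 0.929). Over all tested transcripts 38.9% passed in this bud comparison. DFR was lower in TZM bud than in MN bud stage 3, with 498 ± 41.1 FPKM in TZM and 1531 ± 269 FPKM in MN (SD, n = 3 each, log2 difference −1.61, adjusted p = 0.00628). Against the other bud groups the means lay closer, as DFR averaged 420 ± 108 FPKM in MN bud stage 1 and 666 ± 460 FPKM in SZT bud (SD, n = 3 each, not tested against TZM).

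The difference between full bloom and bud was itself tested as an interaction, (TZM minus MN white) minus (TZM minus MN bud stage 3). The study describes separate white and red samples of MN at full bloom and no such split in the bud. A change between stages therefore cannot be told apart here from a difference between petal regions. The interaction was 1.16 for CHS (SE 0.43, adjusted p = 0.0377), −1.02 for F3H (SE 0.37, adjusted p = 0.0345) and −1.82 for ANS (SE 0.64, adjusted p = 0.0301). These calls ended without any 1 of 7, 6 and 4 of the 12 libraries, with adjusted p of up to 0.101, 0.0923 and 0.0985. Over the whole cluster number the ANS interaction turned to 0.80 (adjusted p = 0.377). For DFR it was −1.23 (adjusted p = 0.129) and for ANR 1.92 (adjusted p = 0.320). Neither was stable, since ANR passed over its whole cluster number, at 4.49 (adjusted p = 3.23e-05), and DFR passed in a fit on the 12 libraries alone (adjusted p = 0.0126). The CHS transcript Cluster-72978.11 was lower in TZM bud than in MN bud stage 3 (log2 difference −0.71, adjusted p = 0.0245) and higher in TZM than in MN white at full bloom. Its interaction of 1.79 (adjusted p = 0.000362) passed without each of the 12 libraries. At full bloom it averaged 11.6 FPKM in TZM, 5.20 FPKM in MN white and 38.0 FPKM in the MN red region. TZM thus lay above the white region of MN and below its red region (the latter not tested).

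The miRNA production transcripts, which did not pass at full bloom, differed in the bud. All 6 share 1 cluster number and are not independent, and Cluster-100695.19 is also listed as an SNF2 factor, a family of chromatin remodelers. Their means lay between 4.30 and 14.8 FPKM in TZM and between 4.86 and 10.6 FPKM in MN white at full bloom, but between 43.2 and 82.0 FPKM in TZM bud and between 3.78 and 15.3 FPKM in MN bud stage 3. Cluster-100695.13 had 55.7, 85.8 and 91.0 FPKM in TZM bud, against 10.9, 6.49 and 6.84 FPKM in MN bud stage 3. At full bloom it had 7.89, 10.7 and 8.92 FPKM in TZM, against 6.27, 11.7 and 7.69 FPKM in MN white. All 6 were higher in TZM in the bud (log2 differences 2.26 to 3.82, adjusted p of at most 0.000388, against 22.9% of all tested transcripts that passed in this direction), and all 6 interactions passed, at −3.58 to −1.86 (adjusted p of at most 0.0248, against 20.2% of all tested transcripts). The call of Cluster-100695.10 ended without any 1 of 5 of the 12 libraries (adjusted p of up to 0.0708).

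The difference of the bZIP transcript Cluster-73402.0 changed sign between the bud and full-bloom comparisons. In the bud it had 206, 202 and 170.4 FPKM in TZM, against 41.9, 56.7 and 80.2 FPKM in MN bud stage 3 (log2 difference 1.72, adjusted p = 0.000483). The interaction was −2.65 (adjusted p = 0.000291) and passed without each of the 12 libraries. In SZT bud the transcript had 200, 229 and 84.5 FPKM, a mean of 171 FPKM near the 193 FPKM of TZM bud (not tested). It averaged 48.6 ± 6.99 FPKM in MN bud stage 1 (SD, n = 3, not tested), near the 59.6 FPKM of MN bud stage 3. The MADS-MIKC transcript Cluster-93016.5 and the Whirly transcript were lower in TZM in the bud too, at −0.93 (adjusted p = 0.00213) and −0.99 (adjusted p = 4.07e-05). Over all 32 named transcripts tested, 12 interactions passed, 3 positive and 9 negative. These 37.5% lay near the 38.7% of all tested transcripts.

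Over the whole transcriptome the 2 white tissues differed widely. A call required an adjusted p of at most 0.001 together with a log2 difference of 1 or more in either direction. This held for 6684 of 33589 transcripts (19.9%), 3554 higher (10.6%) and 3130 lower (9.32%) in TZM. Which direction held more calls turned with the scale: with median-ratio scaling 3308 were higher and 4050 lower in TZM (45.0% higher, against 53.2% as deposited), and with a pseudocount of 0.01, 2450 were higher and 2617 lower. The median log2 difference of all tested transcripts was 0.12 as deposited and −0.06 after median-ratio scaling. The spread of the other groups and the number of libraries both enter this count, and their parts were not told apart. A fit on the 6 libraries alone called 895 transcripts, 407 higher and 488 lower in TZM. In that fit 15788 had an unadjusted limma p under 0.05, against 18417 in the fit over all 27 libraries.

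The calls are described here by size and level. Those higher in TZM had a median log2 difference of 2.41, a median mean of 11.7 FPKM in TZM and 1.05 FPKM in MN white, and took 13.7% of the FPKM in TZM and 1.51% in MN white. Those lower in TZM had a median log2 difference of −2.61, with median means of 1.30 FPKM in TZM and 17.1 FPKM in MN white, and took 2.23% of the FPKM in TZM and 13.8% in MN white. A log2 difference of at least 4 in size was reached by 402 of the higher and 463 of the lower transcripts. These values describe the calls, whose direction and least size are fixed by the rule that made them.

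**Figure D4:**
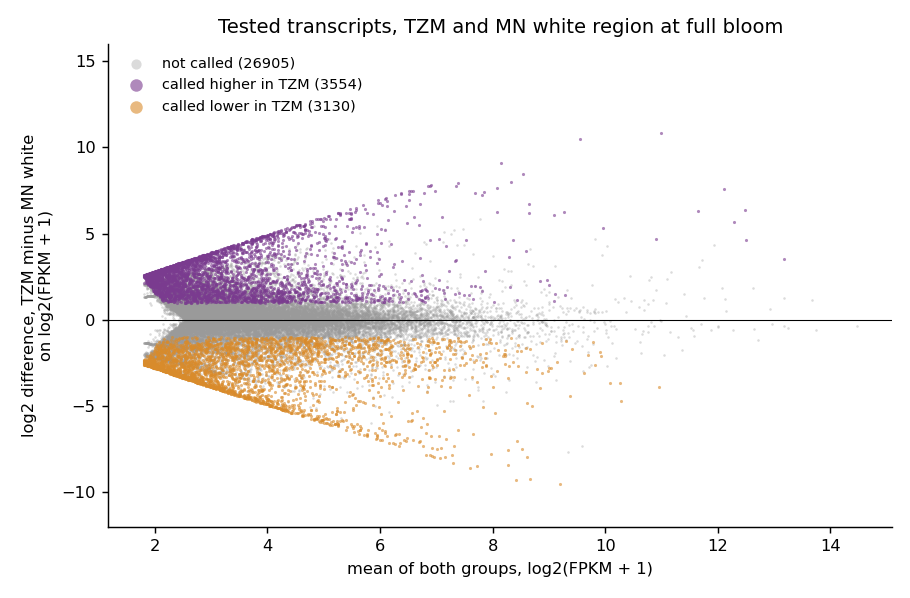
Log2 difference, TZM minus MN white, against the mean of both groups on log2(FPKM + 1) for the 33589 tested transcripts, with those called higher in TZM in purple (3554), those called lower in orange (3130) and the others in grey. The straight upper and lower edges are transcripts near 0 in all libraries of one group, and the 4 extreme transcripts named in the text lie at 10.82, 10.49, −9.49 and −9.26.

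Many calls were transcripts listed at 0 in one of the tissues. Of the 3554 higher in TZM, 894 were listed at 0 in all 3 MN white libraries, and of the 3130 lower, 731 were listed at 0 in all 3 TZM libraries. The same transcripts were then read in the libraries outside the comparison. Among the 894, 482 (53.9%) were at 0 in the other 12 MN libraries as well, 607 (67.9%) in the 6 SZT libraries and 420 (47.0%) in all 18, against 1.87% of all tested transcripts in all 18. In all 3 TZM bud libraries 574 (64.2%) were above 0, against 81.1% of all tested transcripts. Among the 731, 554 (75.8%) were at 0 in the 3 TZM bud libraries, against 7.76% of all tested transcripts, and 667 (91.2%) were above 0 in all 3 SZT full-bloom libraries, against 83.7% of all tested transcripts. In all 6 SZT libraries 438 (59.9%) of the 731 were above 0, against 74.2% of all tested transcripts, and in all 3 MN bud stage 3 libraries 435 (59.5%), against 75.6%. These shares are a description only. The 894 passed the minimum through TZM alone and the 731 through MN white alone. All tested transcripts also include those that passed through the other tissue, so part of each contrast is set by the choice.

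The most extreme transcripts reached high levels in one tissue and lay at or near 0 in the other. Cluster-79961.12 had 2978, 6066 and 3197 FPKM in TZM, against 0, 1.99 and 2.28 FPKM in MN white (log2 difference 10.82, SE 0.60, adjusted p = 8.25e-12). Cluster-6248.28 had 965, 1542 and 1981 FPKM in TZM and was listed at 0 in all 3 MN white libraries (log2 difference 10.49, SE 0.53, adjusted p = 1.78e-12). Both were far lower in TZM bud, where the first reached at most 0.68 FPKM and the second 5.42, 43.1 and 21.6 FPKM. Cluster-79961.12 shares its number with 13 others, and the sum of all 14 differed far less, by 1.30 (adjusted p = 0.00195). The sum over the 37 transcripts with the number of Cluster-6248.28 differed by 2.20 (adjusted p = 0.00125).

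In the other direction, Cluster-94147.1 was listed at 0 in all 3 TZM libraries, against 133, 1404 and 1990 FPKM in MN white (log2 difference −9.49, SE 1.06, adjusted p = 3.37e-07). It was also listed at 0 in TZM bud, and had 879, 1809 and 1980 FPKM in SZT at full bloom. The sum with the only other transcript of its number differed by −8.75 (adjusted p = 1.10e-07). Cluster-100328.138 was listed at 0 in TZM at both stages, against 316, 739 and 980 FPKM in MN white (log2 difference −9.26, SE 0.55, adjusted p = 2.24e-11). Its number holds 287 transcripts, whose sum differed by −1.10 (adjusted p = 0.0152). No function is given for these 4 transcripts in the sources used here.

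Summing all transcripts of a cluster number reduced some of the differences. Of 18644 number sums with a mean of at least 5 FPKM in either group, 3029 were called (16.2%), 1668 higher (8.95%) and 1361 lower (7.3%) in TZM (with median-ratio scaling, 1465 higher and 1842 lower). A number with at least 1 called transcript occurred 4593 times, and its sum was called in 2563 (55.8%). In 340 numbers (7.40%) transcripts were called in both directions, and these held 1366 (20.4%) of the called transcripts. The sum was called in 38 (11.2%) of the 340, and their median size of the log2 difference was 0.48, against 2.51 for the called transcripts.

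The direction of the calls was partly shared with the bud. The bud libraries did not set the full-bloom differences, but their spread entered the fit behind the calls. Of the 3554 transcripts higher in TZM at full bloom, 2506 (70.5%) were higher in TZM bud than in MN bud stage 3, with a median log2 difference of 0.62. Of the 3130 lower ones, 1965 (62.8%) were lower in TZM bud, with a median of −0.42. Over all tested transcripts 53.6% were higher and 42.7% lower in TZM bud, with a median of 0.08. The call rule was met in the same direction in the bud by 1062 (29.9%) of the higher and 824 (26.3%) of the lower transcripts, against 9.5% and 5.76% of all tested transcripts, and in the opposite direction by 96 and 152.

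Set against SZT bud in place of MN bud stage 3, the shares were similar. Of the higher transcripts, 2475 (69.6%) were higher in TZM bud and 991 (27.9%) were called so, and of the lower ones 2051 (65.5%) were lower and 835 (26.7%) called so, against 7.17% and 5.43% of all tested transcripts called. The SZT and MN bud comparisons share the TZM bud libraries, so the second is no separate check of the first. Between the red tissues at full bloom, SZT minus MN red, 2.23% of all tested transcripts were called. Of the transcripts higher in TZM than in MN white, 1242 (34.9%) were higher and 1604 (45.1%) lower in SZT than in MN red, and 29 (0.816%) were called higher and 44 (1.24%) lower. Of those lower in TZM, 1278 (40.8%) were higher and 1849 (59.1%) lower in SZT than in MN red, and 46 (1.47%) were called higher and 129 (4.12%) lower. Over all tested transcripts 44.3% were higher and 52.1% lower, and the calls were 206 higher (0.613%) and 543 lower (1.62%).

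**Figure D5:**
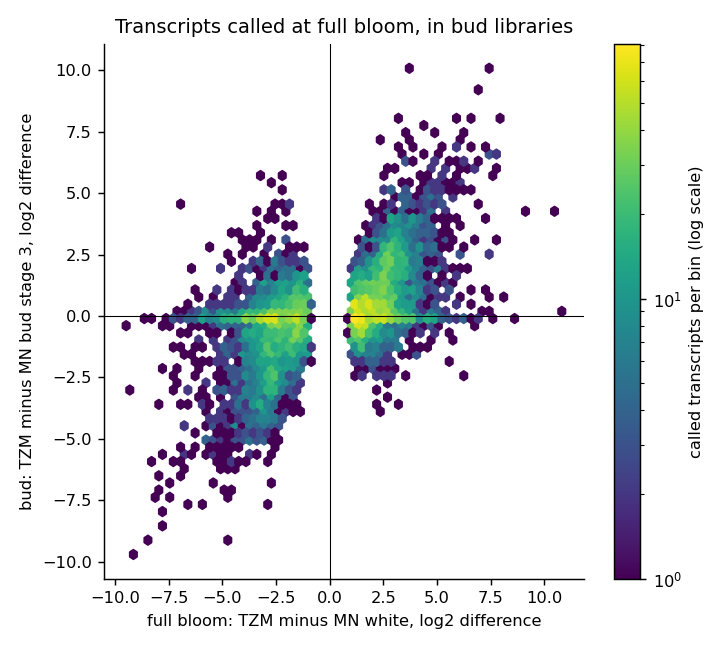
The 6684 transcripts called at full bloom, with the log2 difference at full bloom (TZM minus MN white) on the x axis and in the bud (TZM minus MN bud stage 3) on the y axis, both on log2(FPKM + 1), as counts per bin on a log color scale. The gap around 0 on the x axis is set by the call rule. Of those called higher, 70.5% lie above 0 on the y axis, and of those called lower, 62.8% lie below it.

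The stage interaction over all transcripts was called for 4488 (13.4%), 2060 positive (6.13%) and 2428 negative (7.23%). With median-ratio scaling 1562 were positive and 3499 negative, 30.9% positive against 45.9% as deposited. At this rule the interaction calls were fewer than the full-bloom calls (19.9%) and near in number to the bud calls (5128, 15.3%). The counts do not give how many transcripts changed, since the interaction has a larger SE (for CHS 0.43, against 0.30 at full bloom). In fits on the compared libraries alone the order turned, with 2076 interaction calls and 895 full-bloom calls. That order of the counts was not tested, and stage cannot be told apart from petal region in this term.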

How the data were processed

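RNA sequencing of camellia flowers gave 27 libraries in 9 groups of 3, assigned by cultivar, stage and replicate number in the labels, with 0 columns left unmatched. Nothing states that replicates came from separate plants, so p-values measure only the spread between these libraries. The authors trimmed reads with Trimmomatic 0.36 and assembled transcripts with Trinity. Not given in the sources used here are the mapper and the program behind the FPKM. The FPKM deposited by the authors, rounded to 2 decimals, were used for 225938 transcripts, with no read counts and hence no counting intervals.

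Values were read in R 4.3.3 with the package data.table (version 1.17.8), and log2(FPKM + 1) was tested with limma 3.58.1 with a trend on mean expression. Plots were drawn in Python 3.11.15 with matplotlib 3.10.9, numpy 2.4.6 and pandas 2.3.3. The scripts were tested on simulated data. DEGseq, named in the study's methods, needs counts and was not run. Every transcript listed in the study's supplement was read, and named with its values where it passed or belonged to an enzyme, or otherwise counted with examples, among them transcripts below the minimum. The text also names, for each direction, the 2 called transcripts that differed most among those whose groups did not overlap and that were above 0 in all libraries of the higher group. Cluster-21086.2, Cluster-15097.10 and the examples below the minimum were picked after their values were seen. The members and lists were chosen with earlier results of these data known.

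Other settings tried were filters (10 FPKM, none, or over 9 groups), a pseudocount of 0.01, other call limits, a block on replicate number, median-ratio scaling, the compared libraries alone, each enzyme by its top transcript, and leaving out each library. The sum over a cluster number was added after seeing the data. Metabolites and the pathway enzymes without a named transcript were not analysed here, and transcript sequences were not used here.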

Additional observations from a re-analysis of the deposited data

Results flagged for a closer look

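The difference between TZM and MN was not the same at full bloom (TZM minus MN white) and in the bud (TZM minus MN bud stage 3) for 3 enzyme sums and 12 of 32 named transcripts (37.5%), by the interaction term in limma at a Benjamini-Hochberg adjusted p under 0.05. Over all tested transcripts 38.7% passed this limit, so the count of named transcripts lay near the background. The study describes no split of MN bud petals by region, so this term cannot tell stage from petal region.

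Among the sums, CHS had an interaction of 1.16 (adjusted p = 0.0377), F3H of −1.02 (adjusted p = 0.0345) and ANS of −1.82 (adjusted p = 0.0301). The CHS call ended without MN bud stage 3 replicates 2 or 3, MN white replicate 1, TZM bud replicates 2 or 3, or TZM full-bloom replicates 1 or 3, at 0.95 to 1.18. The F3H call ended without MN bud stage 3 replicates 2 or 3, MN white replicates 1 or 3, TZM bud replicate 1 or TZM full-bloom replicate 1, at −1.01 to −0.86. The ANS call ended without MN bud stage 3 replicate 2, MN white replicate 3, TZM bud replicate 1 or TZM full-bloom replicate 3, at −1.73 to −1.32.

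Among the single transcripts, the interaction was −1.81 for ANS Cluster-21086.8 (adjusted p = 0.0298), 1.79 for CHS Cluster-72978.11 (adjusted p = 0.000362) and −1.002 for F3H Cluster-88339.0 (adjusted p = 0.0353). It was −2.65 for the bZIP transcript Cluster-73402.0 (adjusted p = 0.000291). Of the post-transcriptional gene silencing transcripts, Cluster-94053.12 had 0.99 (adjusted p = 0.0368) and Cluster-94053.17 had 1.86 (adjusted p = 0.00302). The call of Cluster-94053.12 ended without MN bud stage 3 replicates 1 or 3, MN white replicates 1 or 2, or TZM bud replicates 1 or 2, at 0.75 to 0.98 (adjusted p of up to 0.107), with median-ratio scaling (adjusted p = 0.111) and in the 12 libraries alone (adjusted p = 0.113). The call of Cluster-21086.8 ended without the same 4 libraries as the ANS sum, at −1.72 to −1.31 (adjusted p of up to 0.0977). The call of Cluster-88339.0 ended without MN bud stage 3 replicate 3, MN white replicates 1 or 3, TZM bud replicate 1 or TZM full-bloom replicate 1, at −0.997 to −0.79 (adjusted p of up to 0.104).

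The 6 miRNA production transcripts, which share a cluster number, had interactions of −1.86 (Cluster-100695.10), −2.99 (Cluster-100695.13), −3.58 (Cluster-100695.17), −2.33 (Cluster-100695.19), −3.26 (Cluster-100695.7) and −1.90 (Cluster-100695.9). The call of Cluster-100695.10 ended without MN bud stage 3 replicate 1, MN white replicate 1, TZM bud replicates 2 or 3, or TZM full-bloom replicate 1, at −1.73 to −1.51 (adjusted p of up to 0.0708). Over all 22 transcripts of that number the FPKM summed to 335 ± 29.3 in TZM and 261 ± 27.2 in MN white at full bloom, and to 723 ± 124 in TZM bud and 277 ± 5.19 in MN bud stage 3 (SD, n = 3 each). The cause of these differences was not tested.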

How the results depend on the processing

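The replicate numbers do not pair the libraries: same-numbered TZM and MN white libraries had correlations of their deviations of −0.26, −0.06 and −0.16, and with the number as a block the CHS sum differed by 0.74 (adjusted p = 0.0521), while the block ended no other call of a sum or a named transcript at full bloom. The 6684 called transcripts became 4237 with a filter of 10 FPKM, 10474 with no filter (6451 higher, 61.6%, against 53.2%), 895 in the 6 libraries alone (45.5% higher), 11711 at an adjusted p under 0.05, and 5087 to 6985 with a library left out. The 3029 called number sums became 161 in the 6 libraries alone, 5433 at an adjusted p under 0.05, and 2244 to 3317 with a library left out. The CHS difference was 0.77 with a pseudocount of 0.01 (adjusted p = 0.0633), 0.59 with scaling, 0.74 with no filter (adjusted p = 0.0813), with a filter over 9 groups (adjusted p = 0.0572) or in the 6 libraries alone (adjusted p = 0.110), and 0.53 to 0.998 with a library left out. ANR gave 0.84 to 2.90 with a library left out and 2.08 over its number, and ANS reversed to 0.70 over its number. The 9 named transcripts that passed became 14 with no filter, 18 with a filter over 9 groups, 2 under the stricter call rule, and 7 to 11 with a library left out. The 4488 interaction calls became 6928 with no filter, 2076 in the 12 libraries alone, and 3362 to 5113 with a library left out. The CHS interaction was 1.19 with a pseudocount of 0.01 (adjusted p = 0.0503), 0.88 with scaling (adjusted p = 0.113) and 1.16 with no filter (adjusted p = 0.0551), where F3H had −1.02 and ANS −1.82 without passing. Left-out libraries gave 0.95 to 1.42 for CHS, −1.16 to −0.86 for F3H and −2.20 to −1.32 for ANS. DFR passed at −1.23 in the 12 libraries alone, and over the cluster number ANS reversed to 0.80 and ANR passed at 4.49. With a mean of at least 5 FPKM required in the bud, 68.8% of the lower transcripts were lower in TZM bud than in MN bud stage 3, and 71.9% than in SZT bud. Otherwise 194 values of the main results kept their call or stayed near in size, and of the single transcripts 346 stayed and 42 lost their call. The causes were not tested, and low FPKM are the least precise.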
